A study of Drosophila melanogaster with 4 samples.

Results

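Phenylalanine, tyrosine and tryptophan share an aromatic ring that animal cells break down by dedicated enzymes, and 7 Drosophila genes of this breakdown were chosen by name: Hn, Tat, Hpd, hgo and Faa for phenylalanine and tyrosine, and v and cn for tryptophan. A gene was measured where a row of the array carried its symbol and no other in the platform's probe-to-gene table. This held for 5 of the 7, out of 13402 genes tested, namely Tat, Hpd, hgo, Faa and cn. Hn and v were not analysed here.

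RNA came from fat bodies, the organ that does much of the amino acid metabolism of a larva, as the liver does in mammals. All larvae were w1118, a strain that lacks the eye pigment transporter White, and the labels give no sex. They were 5 days old and had eaten a semi-purified diet from the egg stage on. The 2 control arrays came from larvae on that diet alone, and the 2 PFJ arrays from larvae whose diet also held palm fruit juice (PFJ). Per the labels the juice, 4 ml of it, brought the diet to 19000 mg of phenolic compounds per kg, counted as gallic acid equivalents, or 0.86 mg per kcal. Each array was hybridised with RNA pooled from 10 larvae, so differences between single larvae cannot be seen.

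In the tyrosine branch, phenylalanine hydroxylase (Hn) makes tyrosine with the cofactor tetrahydrobiopterin, and tyrosine aminotransferase (Tat) takes off its amino group. Hpd, hydroxyphenylpyruvate dioxygenase, then forms homogentisate. Homogentisate dioxygenase (hgo) opens the ring, and fumarylacetoacetase (Faa) splits the product into fumarate and acetoacetate. In the tryptophan branch, the dioxygenase vermilion (v) and a formamidase (KFase) give kynurenine, which cinnabar (cn), kynurenine monooxygenase, converts to the precursor of brown eye pigment. Insects also spend tyrosine on hardening and darkening their cuticle. The comparison asked whether transcripts of these enzymes differed between larvae on the phenolic-rich diet and controls.

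Tat was the one gene of the 5 whose group means lay over 1.5-fold apart, with more signal in the PFJ arrays, and none of the 5 passed the test. The other 4 read between 2.38 and 3.09 on the log2 scale in every array and differed between diets by at most 0.16. By limma with Benjamini-Hochberg adjustment over all genes, 0 of the 5 had an adjusted p under 0.05 (background 0% of 13402 genes). At an unadjusted p under 0.05 the count was also 0 of 5, against 2.78% of all genes. The lower PFJ array exceeded the higher control array for 2 of the 5 (Tat and Hpd), against 15.5% of all genes. The reverse held for 0 of 5, against 13.1%. All 5 differences were nominally above 0, against 51.9% of all genes, with hgo and Faa at 0.00. The median log2 difference was 0.05 over the 5 genes and 0.01 over all genes. With 2 arrays a group the smallest p an exact permutation test can give is 0.333, so no single gene can reach the threshold that way.

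Tat catalyses the entry of tyrosine into its breakdown. In the controls its log2 signal was 3.98 (replicate 1) and 4.17 (replicate 2), and with PFJ it was 4.46 (replicate 1) and 5.28 (replicate 2). Both PFJ arrays were thus above both controls, and PFJ replicate 2 stood well above the other 3. The control mean was 4.08 ± 0.14 and the PFJ mean 4.87 ± 0.58 (SD over 2 arrays), which are 0.80 apart on the log2 scale (SE 0.34), or 1.74-fold. The 95% interval of the fold ran from 0.914 to 3.32. Limma's unadjusted p was 0.0761 and its adjusted p 1, and the exact two-sided permutation p was 0.333. The PFJ arrays were 0.82 apart, slightly more than the groups. A gap within a group that exceeded the difference between groups was found for all 5 genes and for 81.5% of all genes.

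The size of the Tat difference depended on PFJ replicate 2. Against the controls, PFJ replicate 1 read 0.29 and 0.49 higher and PFJ replicate 2 read 1.11 and 1.30 higher. Without PFJ replicate 2 the log2 difference was 0.39 (limma's adjusted p 0.954), and without PFJ replicate 1 it was 1.21 (adjusted p 1). In these fits the lone PFJ array is assumed to vary like the control arrays and the moderated prior, with 2.61 degrees of freedom. In the main comparison the difference stood at percentile 97.6 of the signed differences of all genes.

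**Figure D1:**
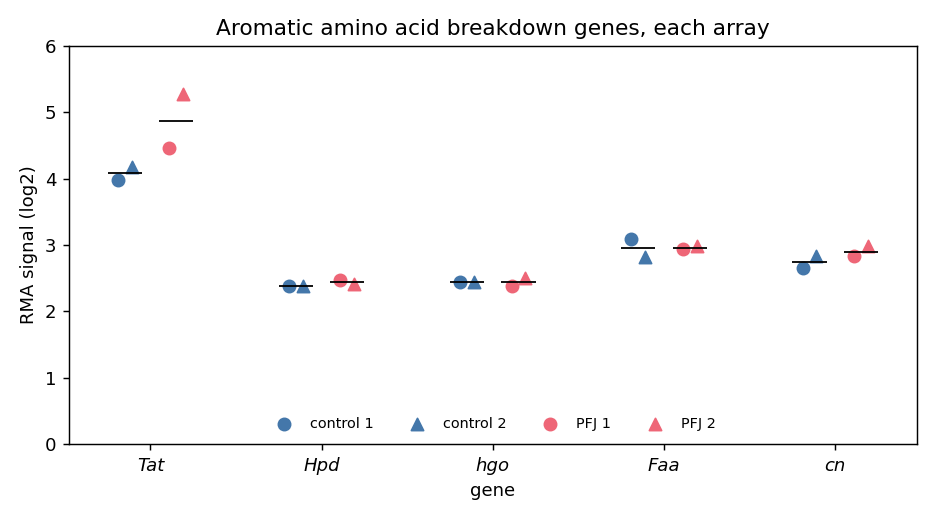
RMA signal on the log2 scale (vertical axis) of the 5 measured breakdown genes (horizontal axis) in each of the 4 arrays. Blue marks control and red PFJ arrays, circles mark replicate 1 and triangles replicate 2, and short bars are group means. Tat runs from 3.98 to 5.28 with both PFJ arrays on top, while the other 4 genes stay between 2.38 and 3.09. Heights are not comparable between genes.

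Hpd forms homogentisate from the keto acid that Tat makes. It read 2.39 in both control arrays, and with PFJ 2.48 in replicate 1 and 2.41 in replicate 2. The PFJ arrays lay above the controls, the nearer one by 0.01. The log2 difference was 0.05 (SE 0.16), with a 95% fold interval from 0.763 to 1.4 and an unadjusted limma p of 0.765.

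The ring-opening enzyme gene hgo read 2.44 in both control arrays, and with PFJ 2.38 in replicate 1 and 2.50 in replicate 2. The PFJ arrays lay on either side of the controls. The log2 difference was 0.00 (SE 0.16) and its fold interval ran from 0.732 to 1.37 (unadjusted limma p 0.998).

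Faa, which completes the tyrosine branch, read 3.09 in control replicate 1 and 2.82 in replicate 2, and with PFJ it read 2.94 in replicate 1 and 2.98 in replicate 2. Both PFJ values lay between the controls. The log2 difference was 0.00 (SE 0.18), with a fold interval from 0.707 to 1.42 (unadjusted limma p 0.981). The signs of hgo and Faa turned when quantile normalisation was repeated and when arrays were centred on their medians, and that of Hpd turned under the former.

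In the tryptophan branch, cn read 2.66 in control replicate 1 and 2.83 in replicate 2, and with PFJ it read 2.83 in replicate 1 and 2.98 in replicate 2. Control replicate 2 and PFJ replicate 1 held the same value, so the groups touched. The log2 difference was 0.16 (SE 0.18), with a fold interval from 0.796 to 1.57 (unadjusted limma p 0.411). For Hpd, hgo, Faa and cn the intervals of the signal difference thus leave out a 2-fold difference in either direction. They do not show that the diets gave equal levels.

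**Figure D2:**
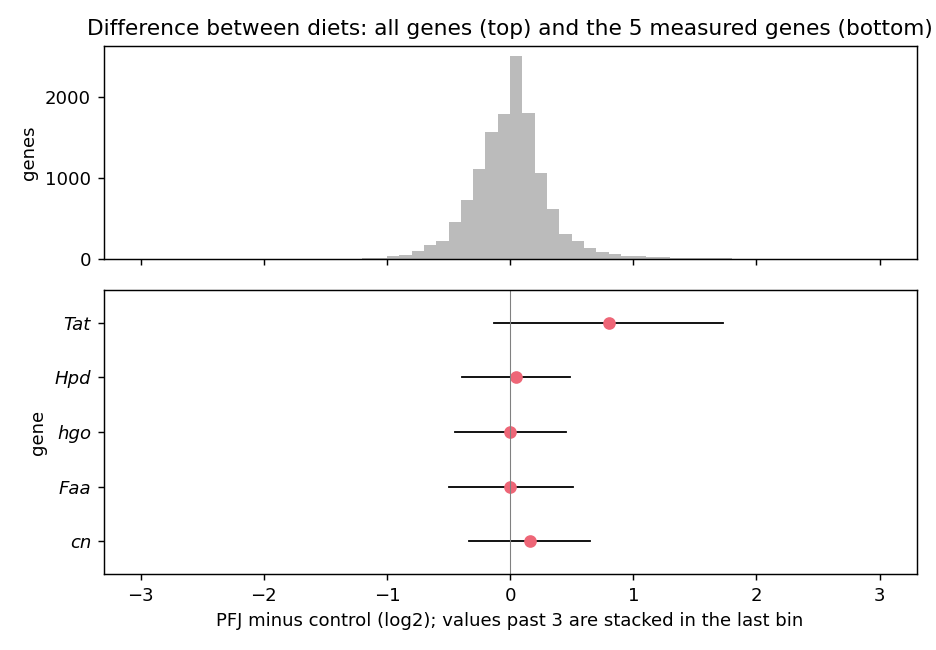
PFJ minus control on the log2 scale (horizontal axis) for all 13402 genes as a histogram (top, vertical axis in genes) and for the 5 measured breakdown genes (bottom, point and moderated 95% interval from limma). All 5 intervals include 0, and Tat at 0.80 lies in the right tail of the histogram.

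The signals of Hpd, hgo, Faa and cn were low, which limits what these values can show. Of the 5 genes, 1 (Tat) had a mean signal of at least 4 and 0 had one of at least 5, where the median gene mean was 4.00. No detection call against background could be made from the deposited values, so it is not known whether the 4 low signals stood above it. The same holds for Tat, whose control mean of 4.08 lay near the median gene mean. Some of the low signals were also identical between arrays to the last deposited decimal. Hpd and hgo each had the same value in both control arrays, as had 62 of all 13402 genes, and cn shared a value between control replicate 2 and PFJ replicate 1. Identical values in any pair of arrays occurred in 3.19% of genes with a mean under 4 and in 0.701% of the others. A within-group SD of 0 for Hpd and hgo is therefore no measure of how alike the pools were.

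Tat varied more over the arrays than the other 4, as its values above already show. After each gene was centred on its own mean, the root mean square difference over the 4 arrays was 0.395 to 0.508 for the 4 pairs with Tat and 0.075 to 0.177 for the 6 pairs without it. This measure follows how far a signal varies, so beside nearly flat genes it restates the Tat difference and is no separate trait. It is a description over 4 arrays. Among 6700 genes with a mean at or above the median gene mean, the one most like Tat was CG3999, at a root mean square difference of 0.0632, and 2 genes lay within 0.1. CG3999 read 5.57 and 5.66 in the controls, against 6.12 and 6.81 with PFJ, in the same order of arrays as Tat. The nearest genes to Hpd, hgo, Faa and cn were RpS29, Gk2, rept and GILT3. Between 304 and 573 genes lay within 0.1 of each of these 4 nearly flat patterns.

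The remaining listed enzymes of tyrosine and kynurenine breakdown showed no shift past the test. The list held 7 genes, of which 5 were measured, and 0 of them were higher or lower at an unadjusted limma p under 0.05 (background 1.74% higher and 1.04% lower), with a median log2 difference of 0.00. GstZ1 and GstZ2 belong to the zeta class of glutathione S-transferases, which isomerises maleylacetoacetate between hgo and Faa. GstZ1 read 6.12 and 6.06 in controls, against 4.94 and 6.48 with PFJ, and GstZ2 read 6.49 and 7.25 against 6.06 and 6.69. Both overlapped between groups, with log2 differences of -0.38 (SE 0.56) and -0.49 (SE 0.38). KFase read 2.39 and 2.60 in controls, against 2.72 and 2.73 with PFJ, so its groups did not overlap. Its log2 difference was 0.24 (SE 0.17), at signals as low as those of Hpd, hgo, Faa and cn. Kyat, a kynurenine aminotransferase gene, differed by 0.00 (SE 0.16) and the fumarase gene Fum4 by 0.13 (SE 0.26).

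Genes for tetrahydrobiopterin, the cofactor of phenylalanine hydroxylase, and for related pteridines were measured for 7 of 8 listed names. At an unadjusted limma p under 0.05, 2 were higher and 1 lower (background 1.74% and 1.04%), and 0 passed adjustment. The list's median log2 difference was 0.11. Pu, GTP cyclohydrolase, which starts pteridine synthesis, read 7.80 and 7.60 in controls, against 8.27 and 8.79 with PFJ. Its log2 difference was 0.83 (SE 0.25). Pcd, a dehydratase that recycles the cofactor after the hydroxylase has used it, read 5.28 and 4.82 against 5.68 and 5.70, a difference of 0.64 (SE 0.23). For both genes the PFJ arrays lay above the controls. The next enzyme after Pu, encoded by pr (purple), differed by 0.53 (SE 0.26), also without overlap. The lower gene was cin, which makes the molybdenum cofactor of xanthine dehydrogenase, at 4.43 and 4.39 against 3.79 and 4.00. Limma's unadjusted p was 0.0468 for Pcd and 0.0408 for cin. In the other settings that kept all 4 arrays and the gene, it lay between 0.0322 and 0.0676 for Pcd. For cin it lay between 0.0421 and 0.0816. Xanthine dehydrogenase itself (ry) differed by 0.11 (SE 0.21), the reductase gene Dhpr by 0.07 (SE 0.16) and the sepiapterin reductase gene Sptr by 0.01 (SE 0.32). Without control replicate 2, 0 of these 7 genes had an unadjusted p under 0.05, and likewise without PFJ replicate 2.

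Tyrosine not broken down can go to cuticle pigment and amines. Of 15 listed names 13 were measured, 1 was higher and 0 lower at an unadjusted limma p under 0.05 (background 1.74% and 1.04%), and the median log2 difference was 0.02. The higher gene was e (ebony), which joins dopamine to beta-alanine for cuticle tanning. It read 6.64 and 6.25 in controls, against 7.53 and 7.86 with PFJ. It differed by 1.26 on the log2 scale (SE 0.24), or 2.39-fold, with an unadjusted p of 0.00618 and an adjusted p of 1 by limma. Left out in turn, single arrays moved it between 1.06 and 1.45. Tyrosine hydroxylase (ple), which belongs to the same hydroxylase family as Hn and commits tyrosine to dopamine, read 9.23 and 9.84 against 9.85 and 10.50. The lower PFJ value exceeded the higher control value by 0.01, and the difference was 0.64 (SE 0.35). Leaving out replicate 1 of the controls gave 0.33 and replicate 2 gave 0.95, and for the PFJ arrays the values were 0.97 and 0.32. Dopa decarboxylase (Ddc), the next step, differed by 0.15 (SE 0.19) and overlapped. The tyrosine decarboxylase gene Tdc1 differed by -0.52 (SE 0.28), and yellow-f, whose product acts in melanin synthesis, by 0.62 (SE 0.34). In the list of hydroxylases other than Hn, ple was the measured one of 3 names.

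Kynurenine and its products enter pigment granules, and 6 of 8 names on a list of eye pigment granule genes were measured. At an unadjusted limma p under 0.05, 1 was higher and 2 lower (background 1.74% and 1.04%), with a median log2 difference of -0.22. The lower ones were the genes of both ABC transporter partners of White. The partner for pteridine precursors, bw (brown), read 6.21 in both controls, against 5.53 and 5.51 with PFJ, a difference of -0.69 (SE 0.16, unadjusted p 0.0115). The partner for ommochrome precursors, st (scarlet), read 3.66 and 3.29 against 2.82 and 2.85, a difference of -0.64 (SE 0.20). The st signals were low, with group means of 3.48 in controls and 2.84 with PFJ. It is not known whether they stood above background. The groups did not overlap for either gene, and limma's adjusted p was 1 for both. With single arrays left out, the difference of bw stayed between -0.70 and -0.68, while its unadjusted limma p lay between 0.0468 and 0.0517. That of st ranged from -0.82 to -0.45, and its p was 0.0313 without control replicate 2 and between 0.116 and 0.140 without any other array. The list had 0 genes higher or lower at that level without control replicate 1, and likewise without PFJ replicate 2. The higher gene was car (carnation), of a complex that delivers proteins to lysosomes and pigment granules, at 0.46 (SE 0.17). Its group means were also low, at 3.28 in controls and 3.74 with PFJ. Its unadjusted p was 0.0491 here and between 0.0508 and 0.179 in the other settings that kept it. The gene dor (deep orange), whose product belongs to the same complex, differed by -0.68 (SE 0.25). The pigment gene cd (cardinal) differed by 0.19 (SE 0.16) and MFS3 by 0.48 (SE 0.48).

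All 8 listed amino acid transporter genes were measured, and 0 were higher or lower at an unadjusted limma p under 0.05 (background 1.74% higher and 1.04% lower). Their log2 differences ran from -0.63 (slif, a cationic amino acid transporter) to 0.04 (mnd, minidiscs), with a median of -0.16. Of the 8, 7 were below 0, where 48.1% of all genes were. Left out in turn, single arrays moved the median between -0.38 and -0.04. NAAT1, which carries neutral and aromatic amino acids, read 3.91 and 4.82 in controls, against 3.47 and 4.03 with PFJ and overlapped between groups. The 39 measured genes of the lists around the breakdown pathway gave 7 with an unadjusted p under 0.05 (background 2.78%), and between 2 and 3 when single arrays were left out.

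**Figure D3:**
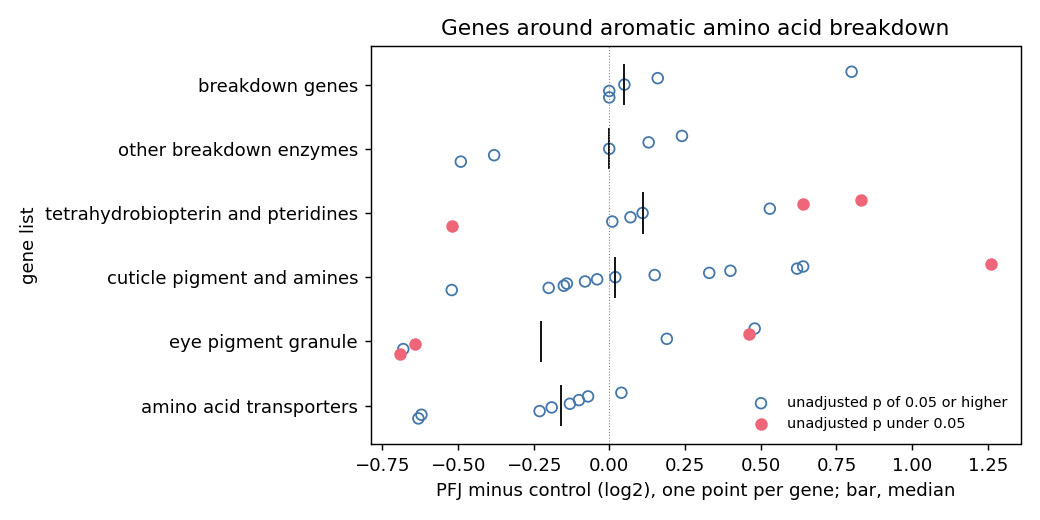
PFJ minus control on the log2 scale (horizontal axis) for each measured gene of the breakdown pathway and of 5 lists around it (vertical axis), with 1 point per gene and a bar at each list's median. Filled red points have an unadjusted limma p under 0.05. The breakdown genes have none, the pigment granule genes lie on both sides of 0, and 7 of the 8 transporters lie below it.

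For other amino acid pathways, the same counts stood as follows, with no test of a difference between lists. Of 6 methionine cycle genes, 1 was higher and 0 lower at an unadjusted limma p under 0.05 (background 1.74% and 1.04%), at a median log2 difference of 0.23. The higher gene was Cth (cystathionine gamma-lyase), which read 5.60 and 5.63 in controls, against 6.44 and 6.48 with PFJ. Of 8 genes of proline, ornithine and glutamate metabolism, 1 was higher and 0 lower against the same background, at a median of 0.08.

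The tissue label was checked with marker genes. The fat body storage and transport protein genes Lsp2, Fbp1, Fbp2 and apolpp read between 9.99 and 12.32 in every array. Other fat body markers were dimmer, as Tsf1, Lpin, Desat1 and FASN1 read between 4.89 and 7.56. Single genes of other tissues were also bright, such as Jon65Aiv (midgut, 10.64 to 11.60) and Sgs3 (salivary gland, 10.45 to 11.15). A high signal was thus not particular to fat body genes. The mean level of the 9 measured fat body markers was 8.82 and 8.54 in controls and 9.27 and 9.41 with PFJ, so the groups did not overlap, as for Tat. This difference in means was not tested. At an unadjusted limma p under 0.05, 3 of the 9 were higher and 0 lower (background 1.74% and 1.04%), and 0 passed adjustment. The 3 were Tsf1, Obp99b and FASN1, at log2 differences of 1.78, 1.26 and 1.23. Lsp2, Fbp1, Fbp2 and apolpp differed by -0.07, 0.12, 0.38 and 0.49, so the markers did not shift alike. Markers of Malpighian tubule, the excretory organ, which also stores tryptophan products, averaged 5.29 and 5.18 against 4.93 and 5.46 over 10 genes and did not separate the groups. Midgut markers averaged 5.46 and 7.09 in controls and 6.05 and 7.23 with PFJ over 16 genes. They were highest in PFJ replicate 2, as were Tat and the means of the fat body, Malpighian tubule, hemocyte and muscle markers. Unlike Tat, the midgut markers were higher in control replicate 2 than in PFJ replicate 1. The means of 10 hemocyte markers were 4.12 and 4.50 against 4.32 and 4.71. At an unadjusted limma p under 0.05, 3 of these 10 were higher and 0 lower (background as above), and 4 of the 10 had a log2 difference below 0. The 3 were Hml, at 0.68, and PPO1 and PPO2, whose products oxidise tyrosine-derived phenols, at 1.26 and 0.78. With eater (0.32) and He (0.48), 5 of the 10 were higher without overlap (background 15.5%), and 0 were lower without overlap (background 13.1%). NimC1 and crq both differed by -0.67, Sr-CI by -0.17, Pxn by -0.01 and lz by 0.08, and all of these overlapped between groups. Muscle markers averaged 7.79 and 6.64 against 7.43 and 8.22 over 5 genes, and salivary gland markers 7.64 and 8.13 against 8.03 and 7.87 over 7. Testis markers averaged 4.57 and 2.57 against 4.35 and 3.65 over 10 genes, lowest in control replicate 2. No defining marker was listed at 0, since RMA signals have no zero. The part of these tissues in the Tat difference was not tested, and in pooled tissue fewer cells of a type and less RNA per cell cannot be told apart.

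**Figure D4:**
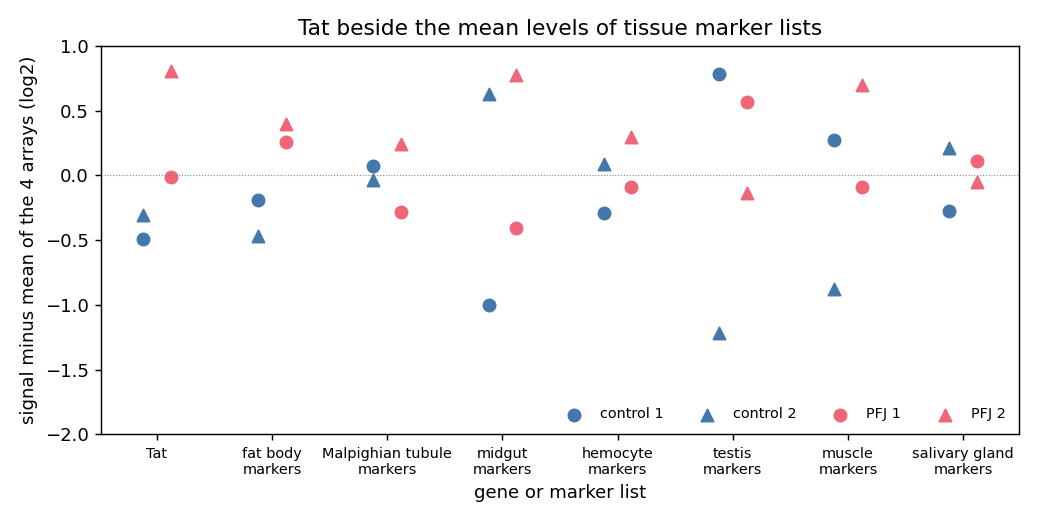
Signal of Tat and mean signal of 7 tissue marker lists (horizontal axis), each minus its own mean over the 4 arrays on the log2 scale (vertical axis). Blue marks control and red PFJ arrays, circles mark replicate 1 and triangles replicate 2. Both PFJ arrays lie above both controls for Tat and for the fat body markers, and within the other 6 lists the groups overlap.

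Whole arrays did not sort by diet. Over all genes, which are not independent, the control arrays correlated at a Pearson r of 0.910, the PFJ arrays at 0.961 and arrays across diets at 0.920 to 0.968. Control replicate 2 took part in the 3 lowest correlations. Leaving it out moved Tat to 0.89, Hpd to 0.05, hgo to 0.00, Faa to -0.13 and cn to 0.24.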

How the data were processed

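Each array measured fat body RNA from a pool of larvae, labelled as biotinylated single-stranded cDNA per the labels' protocols. The deposited values are log2 signals, 1 per row and array. Per the submitters' processing notes, the authors used RMA in Affymetrix Expression Console (version 1.4.0.38). RMA corrects background, equalises the arrays' distributions and summarises probes, which hides any shift that most genes share. The medians of the deposited values over all rows still differed, at 4.09 and 3.93 in controls and 4.08 and 4.00 with PFJ. That these are log2 values was judged from their range, 1.36 to 12.73. The genome build was not given in the sources used here. Precision is limited by the number of arrays.

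Of 16322 rows, 13441 had 1 gene symbol, 555 several and 2326 none in the platform table. Rows with several or none were left out. Where a gene had several rows (37 genes) the brightest was kept, leaving 13402. Symbols were checked by Entrez identifier against RefSeq records (13064 of 13244 matched, 0 changed), and older list names were matched through RefSeq synonyms.

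Groups were compared with limma 3.58.1 in R 4.3.3 (lmFit, eBayes, no covariate, two-sided), with Benjamini-Hochberg adjustment over all genes and a threshold of 0.05. SEs are moderated, with 4.01 degrees of freedom. The procedure was tested on simulated data with independent noise drawn from the fitted prior. That test does not cover deviations that many genes of an array share. The labels describe separate pools per replicate, and p-values cover the spread between these pools.

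The genes and lists were chosen with earlier results of these data known, so no list is independent evidence. All listed breakdown genes are named. Lists of up to 8 genes could be named in full and longer ones by their 4 smallest p-values. PPO1, PPO2, Hml, eater, He, NimC1, crq, Sr-CI, Pxn, lz, Ddc, Jon65Aiv, Sgs3 and the fat body markers were named after their values were seen. Alternatives covered normalisation, centring, filters at 4 and 5, rows used, the variance prior, a replicate block and leaving out each array.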

Additional observations from a re-analysis of the deposited data

How the results depend on the processing

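The count of breakdown genes at an adjusted p under 0.05 was 0 in every setting run, as was the count over all genes, by limma. Counted at an unadjusted limma p under 0.05, the main comparison gave 373 of 13402 genes. Of the other settings that kept all 4 arrays, the filter at 5 gave 142 of 4424. Median centring gave 263 and the replicate block 547, both of 13402. Tat kept a positive log2 difference in 10 of 10 settings, from 0.39 to 1.21, with adjusted p-values from 0.800 to 1, and cn in 9 of 9, from 0.05 to 0.24. With quantile normalisation repeated the log2 differences of Hpd, hgo and Faa turned to -0.06, -0.11 and -0.10, and with median centring those of hgo and Faa turned to -0.05 and -0.04. When single arrays were left out, hgo ranged from -0.06 to 0.06 and Faa from -0.13 to 0.14. Median centring takes off each array's median over the genes tested, which was 4.02 and 3.86 in controls and 4.02 and 3.95 with PFJ. The cause of the other sign turns was not tested. Each of these values of Hpd, hgo and Faa was within its SE of 0. The filter at a mean of 4 left Tat as the 1 breakdown gene, and the filter at 5 left 0. Of the 39 genes in the lists around the pathway, 7 had an unadjusted p under 0.05, against 3 with either filter, which leave fewer genes tested, 4 with an intensity trend in the prior (cause not tested) and 2 to 3 with single arrays left out, where fewer arrays were tested. The count was 5 with quantile normalisation repeated, 5 with median centring, 6 with every row in the fit and 8 with the replicate block. These counts over lists were added after seeing the data.

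The replicate numbers are shared between groups, but the labels do not say that they pair the pools. Deviations from the group means of the arrays numbered 1 correlated at 0.337 across genes. With the replicate block, Tat differed by 0.80 with an unadjusted limma p of 0.0405 and an adjusted p of 0.982, 547 genes had an unadjusted p under 0.05, and 0 passed adjustment.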

Other observations

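Rows outside the gene comparison, those with several symbols or none and second rows of a gene, numbered 2920, and 0 of them had an adjusted p under 0.05 when every row entered limma.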
